A study of Mus musculus with 27 samples.

Results

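The 9 genes described here encode the histone demethylase LSD1 (*Kdm1a*) and its paralogue KDM1B (*Kdm1b*), the transcription factors GFI1B (*Gfi1b*) and GFI1 (*Gfi1*), the CoREST scaffolds (*Rcor1*, *Rcor2* and *Rcor3*) and the histone deacetylases HDAC1 (*Hdac1*) and HDAC2 (*Hdac2*). They were chosen by symbol from the 20602 genes listed in at least 1 of 5 RNA-Seq tables of MEL cells, an established mouse erythroleukaemia line that models immature erythroid cells, and all 9 were listed in each table. The tables hold 21 libraries. MEL cells transduced with lentiviral shRNAs were harvested at 72 h after depletion of *Cbfa2t3*, which encodes ETO2, a co-repressor of the GATA1 and TAL1 complex (2 sh2 and 2 sh3 libraries), of *Irf2bp2*, which encodes a co-repressor partner of ETO2 (2 sh1 libraries) or of *Kdm1a* (2 libraries). The controls carried a non-targeting shRNA, with 2 libraries in each of the first pair of tables and 1 in the *Kdm1a* table. In a further table MEL cells transfected with *Gfi1b* siRNA (2 libraries by their labels) stood against 2 control libraries. The study's methods name 2 *Gfi1b* siRNAs and more than 1 harvest time, and the sources used here do not say which of them each library received. MEL cells induced to differentiate for 96 h (2 libraries) stood against non-induced cells at 0 h (2 libraries). The study's methods describe sequenced samples as independent biological replicates, while the labels name no culture, and p-values measure the spread between these libraries.

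GFI1 and GFI1B are zinc finger repressors that recruit LSD1 and CoREST through a short amino-terminal SNAG domain. LSD1 removes methyl groups from lysine 4 of histone H3, the CoREST scaffold links it to nucleosomes and to HDAC1 or HDAC2, and the deacetylases act on the same histone tails. HDAC1 and HDAC2 also serve the SIN3 and NuRD complexes. GFI1B is needed for the development of red cells and platelets, GFI1 acts mainly in stem cells, lymphoid cells and granulocytes, and each is known to repress its own gene and that of the other. KDM1B demethylates the same lysine outside the CoREST complex.

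The shRNA libraries held between 44519414 and 57684583 counted reads and the *Gfi1b* and differentiation libraries between 9929311 and 19623105. Levels below are given as CPM (counts scaled to a common library size by TMM), and, where genes are set against each other, as the RPKM values of the authors, which are per kilobase. All 6 erythroid markers (*Gata1*, *Klf1*, *Tal1*, *Lmo2*, *Ldb1* and *Epor*) had reads in every library, with a summed level of 1480 to 2950 CPM. The myeloid markers summed to 4.85 to 53.1 CPM, and *Csf1r* and *Itgam* were at 0 in several libraries. These myeloid sums cover 6 genes in the shRNA tables, 3 in the *Gfi1b* table and 4 in the differentiation table. Not every library of the *Gfi1b* and differentiation tables correlated best with its own replicate. Across 14176 genes, the library labelled *Gfi1b* KD replicate 1 correlated best with induced MEL replicate 1 (r = 0.968). Its r with its own replicate 2 was 0.934. Induced replicate 1 in turn correlated best with that library. *Gfi1b* KD replicate 2 correlated best with *Gfi1b* control replicate 1 (0.961), and that control with the *Kdm1a* control (0.975). Every shRNA library that has a replicate correlated best with that replicate. The library labelled *Gfi1b* KD replicate 1 enters the *Gfi1b* KD comparison and the joint fits. The main values that rest on it are also given without it. In these bulk libraries fewer cells of a type and less RNA per cell cannot be told apart.

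In the 9 control libraries most subunits of the complex were well expressed and *Gfi1* had 2 to 19 reads. By RPKM the order of the median was *Hdac2* at 104 (62.5 to 141), *Gfi1b* at 94 (68.9 to 109), *Hdac1* at 60.6 (49.2 to 69.6), *Kdm1a* at 47.9 (43.5 to 54.6) and *Rcor1* at 30.9 (26.9 to 48). Lower in the order were *Rcor2* at 24.3 RPKM (19.3 to 36.2), *Kdm1b* at 8.05 (7.05 to 10.7), *Rcor3* at 6.42 (5.92 to 8.73) and *Gfi1* at 0.0326 (0.0168 to 0.402). Neighbours in this order overlapped in range, except that every *Rcor2* value lay above every *Kdm1b* value and every *Rcor3* value above every *Gfi1* value. The tables were normalised separately, so these ranges hold differences between tables as well as between libraries. *Gfi1* had 2 to 5 reads in each shRNA control, and 4 to 19 reads in the shallower controls of the other pair of tables. *Kdm1a* had the narrowest range of the 9, with a highest value 1.26-fold above the lowest.

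**Figure D1:**
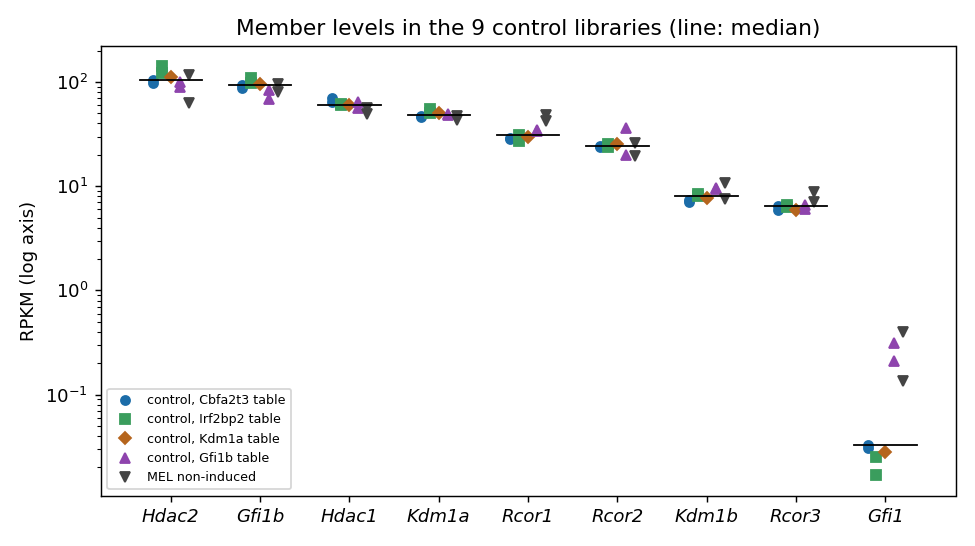
Level of each of the 9 genes in the 9 control libraries, in RPKM on a log axis; each point is 1 library and the line is the median. *Hdac2* and *Gfi1b* lie at medians of 104 and 94 RPKM, *Rcor3* and *Kdm1b* below 11, and *Gfi1* at 0.0326.

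Some of these genes share their position with others. In the mm9 annotation the ends of *Kdm1a*, *Kdm1b*, *Gfi1* and *Rcor3* overlap genes on the opposite strand (*Luzp1*, *Tpmt* and long non-coding RNAs), and the sources used here do not state whether the counting used the strand. *Hdac1* has a processed pseudogene, so that its reads could have been split between near-identical copies. Values of these 5 genes carry that uncertainty.

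The deposited list of 13229 ETO2 and IRF2BP2 binding sites, called against IgG from 1 IRF2BP2 ChIP library and from ETO2 ChIP data whose number of libraries is not given in the sources used here, places sites next to 5 of the 9 genes. With each site given to the single nearest gene, *Gfi1b* had 4 sites, *Gfi1* had 2, *Kdm1a*, *Rcor1* and *Rcor3* had 1 each, and *Rcor2*, *Hdac1*, *Hdac2* and *Kdm1b* had 0. Of all 22239 genes with a start site, 29.2% were nearest to at least 1 site, 9.20% were nearest to a site shared by both factors (among the 9 genes, only *Gfi1*), and 3.78% had as many sites as *Gfi1b* or more. Within 20 kb of the gene, regardless of the nearest gene, *Gfi1b* had 9 sites. Fold enrichment below is the ratio of ChIP to IgG reads with 1 read added to each, the list has a median of 7.33, and for a shared site the deposited reads are not tied to a named antibody.

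The strongest site near any of the 9 genes lay downstream of *Gfi1b* (chr2:28464970-28477502, minus strand, mm9). This shared site (chr2:28457532-28458329, 159 ChIP reads against 0 IgG reads, 160-fold) ranked 4 of the whole list, lay 19.6 kb from the *Gfi1b* start site, past the end of the gene, and had *Gtf3c5* as its nearest gene. A further shared site lay 23.8 kb from the start site (chr2:28453103-28454189, 254 reads against 5, 42.5-fold, rank 140). An ETO2-only site of 5.29-fold covered the start site itself (chr2:28476833-28477930), with its centre 34 bp upstream of it. IRF2BP2-only sites lay in introns at 2.4 kb (chr2:28474874-28475397, 10.0-fold) and 4.9 kb (chr2:28472214-28473659, 7.33-fold). At *Gfi1* (chr5:108145674-108155056, minus strand), which the annotation lists as a processed transcript, the shared site (chr5:108187979-108189230, 272 reads against 9, 27.3-fold, rank 473) lay 33.3 kb upstream in an intron of *Evi5*, and an ETO2-only site of 7.2-fold lay 25.0 kb downstream of the start site.

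**Figure D2:**
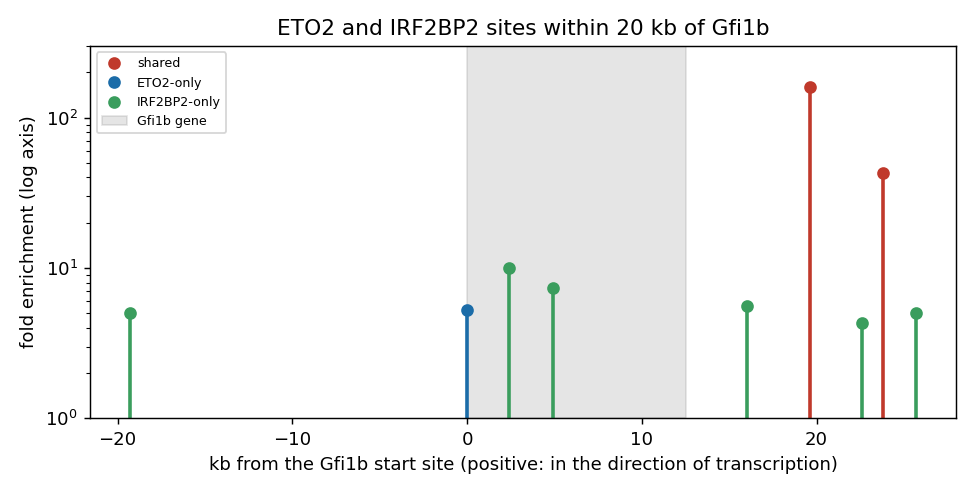
ETO2 and IRF2BP2 sites within 20 kb of *Gfi1b*, by distance of the site centre from the start site (kb, positive in the direction of transcription) and fold enrichment on a log axis; the shaded band is the gene. The 2 shared sites, at 19.6 and 23.8 kb, have 160-fold and 42.5-fold enrichment and the other 7 sites are at or below 10.0-fold.

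The sequences at the centres of the 3 shared sites and upstream of the *Gfi1b* start site are shown because ETO2 is a known partner of the GATA1 and TAL1 complex, which binds GATA and composite elements, and because GFI1 proteins bind a recognition element of their own. Each is the plus strand of mm9. Capitals mark GATA elements (AGATAA or AGATAG or TGATAA or TGATAG, on either strand), the GFI1 element (AAATCAC on either strand) and, in the last sequence, the CTG of a composite element (CTG, 6 to 8 bases, then a GATA element, on either strand).
Gfi1b, shared site, chr2:28457792-28457942: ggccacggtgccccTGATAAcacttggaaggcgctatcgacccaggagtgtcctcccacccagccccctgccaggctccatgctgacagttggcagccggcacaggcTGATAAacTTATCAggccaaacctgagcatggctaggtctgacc
Gfi1b, shared site, chr2:28453676-28453826: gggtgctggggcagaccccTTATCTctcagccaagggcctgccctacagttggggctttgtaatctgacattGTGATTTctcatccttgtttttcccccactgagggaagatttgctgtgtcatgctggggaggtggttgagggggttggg
Gfi1, shared site, chr5:108188265-108188415: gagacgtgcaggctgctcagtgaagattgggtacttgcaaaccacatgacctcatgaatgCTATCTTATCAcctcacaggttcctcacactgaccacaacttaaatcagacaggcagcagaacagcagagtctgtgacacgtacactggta
Gfi1b, upstream of the start site, chr2:28477503-28477636: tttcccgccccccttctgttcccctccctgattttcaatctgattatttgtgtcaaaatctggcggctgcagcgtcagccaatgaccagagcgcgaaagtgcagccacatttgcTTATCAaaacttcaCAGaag
The first sequence holds 3 GATA elements, 2 of them facing each other across 2 bases. The *Gfi1* site holds 2 overlapping GATA elements, and the sequence upstream of the *Gfi1b* start site holds 1 composite element on the minus strand. The site at 42.5-fold holds 1 GATA element and 1 GFI1 element in the printed window. Over the 201 bases around the centre, a GATA element was present in 90.4% of shared, 88.7% of ETO2-only and 44.5% of IRF2BP2-only sites, the composite element in 32.7, 33.9 and 6.29%, and the GFI1 element in 1.39, 1.99 and 1.54%. A match is a description of the letters and not of binding. The fourth *Gfi1b* site was IRF2BP2-only and lay 16.0 kb downstream of the start site, past the end of the gene (chr2:28461255-28462026, 5.6-fold). The sites of the other genes lay in introns 1.0 kb from the start site of *Kdm1a* (chr4:136157215-136158283, IRF2BP2-only, 9.0-fold) and 1.3 kb from that of *Rcor3* (chr1:193959705-193962259, IRF2BP2-only, 3.75-fold), and 10.5 kb upstream of *Rcor1* (chr12:112266737-112268585, ETO2-only, 6.14-fold).

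Depletion of *Kdm1a* asked what follows the loss of the catalytic subunit. *Kdm1a* itself fell, *Gfi1b* and *Gfi1* were higher, and *Hdac2* was lower, while the CoREST scaffolds, *Hdac1* and *Kdm1b* stayed within the limit. With 1 control library a gene was counted as changed when both KD libraries differed from it by a log2 of 0.5 or more in the same direction, and no test is given as the main result. By that rule 4 of the 9 genes changed, 2 higher and 2 lower, and 22.9% of the 12628 genes retained (13.1% higher and 9.80% lower). The 4 include the targeted gene and *Gfi1*, which was retained only through the KD libraries where it is high, so the count is not read against that share.

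*Kdm1a* had 7414 control reads against 916 and 747 after depletion. These left 11% of the control level, a log2 change of -3.19 over libraries that lay within 0.05 of each other on that scale. For *Kdm1b* the control had 34.7 CPM against 28.8 and 26.2 in the KD (log2 -0.34).

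The control library had 168 CPM of *Gfi1b*, and the KD libraries had 377.3 and 356.4 CPM. Both KD libraries lay above the control, by 2.18-fold (log2 1.13; 95% counting interval of the ratio of pooled counts 2.14 to 2.24), and above the *Gfi1b* level of every other shRNA library. *Gfi1* had 4 control reads and 59 and 54 in the KD libraries, which is 0.0818 CPM against 1.09 and 1.18 CPM. The ratio of pooled counts was 13.8 with a counting interval of 5.25 to 51.6, and *Gfi1* passed the filter on low counts through the KD libraries alone. On the RPKM scale *Gfi1* reached 0.456 and 0.413 in these libraries and *Gfi1b* reached 218.4 and 203.8, so that *Gfi1* stayed far below *Gfi1b*. In the differentiation table, which was normalised separately, non-induced replicate 1 listed *Gfi1* at 0.402 RPKM, from 19 reads.

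Among the deacetylases, *Hdac2* stood at 227.6 CPM before and at 85.9 and 93.3 CPM after depletion. Both KD libraries were below the control, and 39.4% of the control level was left (log2 -1.35, counting interval of the ratio 0.381 to 0.403). *Hdac1* stood at 120.1 CPM against 139.8 and 144.6 (log2 0.24). Of the scaffolds, *Rcor3* had 19.8 CPM against 28.2 and 26.8, a log2 of 0.50 in 1 KD library and 0.43 in the other, just outside the rule. *Rcor1* had 80.9 CPM against 69.4 and 65 (log2 -0.27) and *Rcor2* differed by a log2 of 0.02.

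When edgeR's quasi-likelihood test was fitted with the lone control assumed to vary like the KD libraries, the Benjamini-Hochberg adjusted p was 4.17e-18 for *Kdm1a*, 2.33e-12 for *Hdac2* and 1.69e-10 for *Gfi1b*, with 22.5% of all genes called. The spread of the control is assumed and not measured in these fits, and no p is given for *Gfi1*, which was retained through the KD libraries. In a joint edgeR fit of all 5 tables, *Kdm1a* (8.23e-09) and *Hdac2* (0.00488) passed and *Gfi1b* (0.0914) did not, with 5.17% of all genes called. Without the library labelled *Gfi1b* KD replicate 1 in that joint fit, *Gfi1b* passed as well (9.68e-05), with 11.2% of all genes called.

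Genes described as repressed by GFI1 or GFI1B in blood cells went in both directions after *Kdm1a* KD. Of 14 retained, 5 were higher and 4 lower (22.9% of all genes changed), with a median log2 of 0.31 against 0.00 over all genes. *Gata3*, a lymphoid transcription factor, rose from 37 reads to 175 and 145 (log2 2.02) and *Rgs18*, a regulator of G protein signalling in platelets, was at 14.8 CPM against 29.3 and 31.4 (log2 1.03). The immediate-early factor *Egr1* fell from 127 CPM to 39.1 and 40.8 (log2 -1.67) and *Id1*, an inhibitor of helix-loop-helix factors, by 1.28. Of 10 other subunits and partners of the LSD1-CoREST complex, 1 was higher (*Zfp217*, log2 0.65) and 1 lower (the co-repressor *Ctbp2*, -0.51), with a median of -0.12. Of 16 other subunits of SIN3 and NuRD, *Mbd3* (-0.78) and *Mta2* (-0.54) of NuRD were lower, and of 10 other enzymes that set or remove H3K4 methylation, the methyltransferase *Kmt2c* was lower (-0.67). Another SNAG-domain factor, *Ovol1*, the only one of its list retained, was higher (1.16).

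Cell type markers differed beside these genes. Of the 6 erythroid markers 2 were lower (*Tal1* by a log2 of -0.90 and *Lmo2* by -0.80) and the summed level was 2170 CPM in the control against 1760 and 1740. The myeloid markers summed to 15.1 CPM against 21.7 and 24.3, with *Csf1r*, *Lyz2*, *Itgam* and *Mpo* at 0 in the control. Of the 2 retained, 1 was higher (*Cd68*, log2 0.998). The megakaryocyte markers summed to 342 CPM against 280 and 339, and of the 5 retained 1 was lower (*Gp1ba*, log2 -0.903). The part of these cell type markers in the levels of *Gfi1b*, *Gfi1* and *Hdac2* was not tested.

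**Figure D3:**
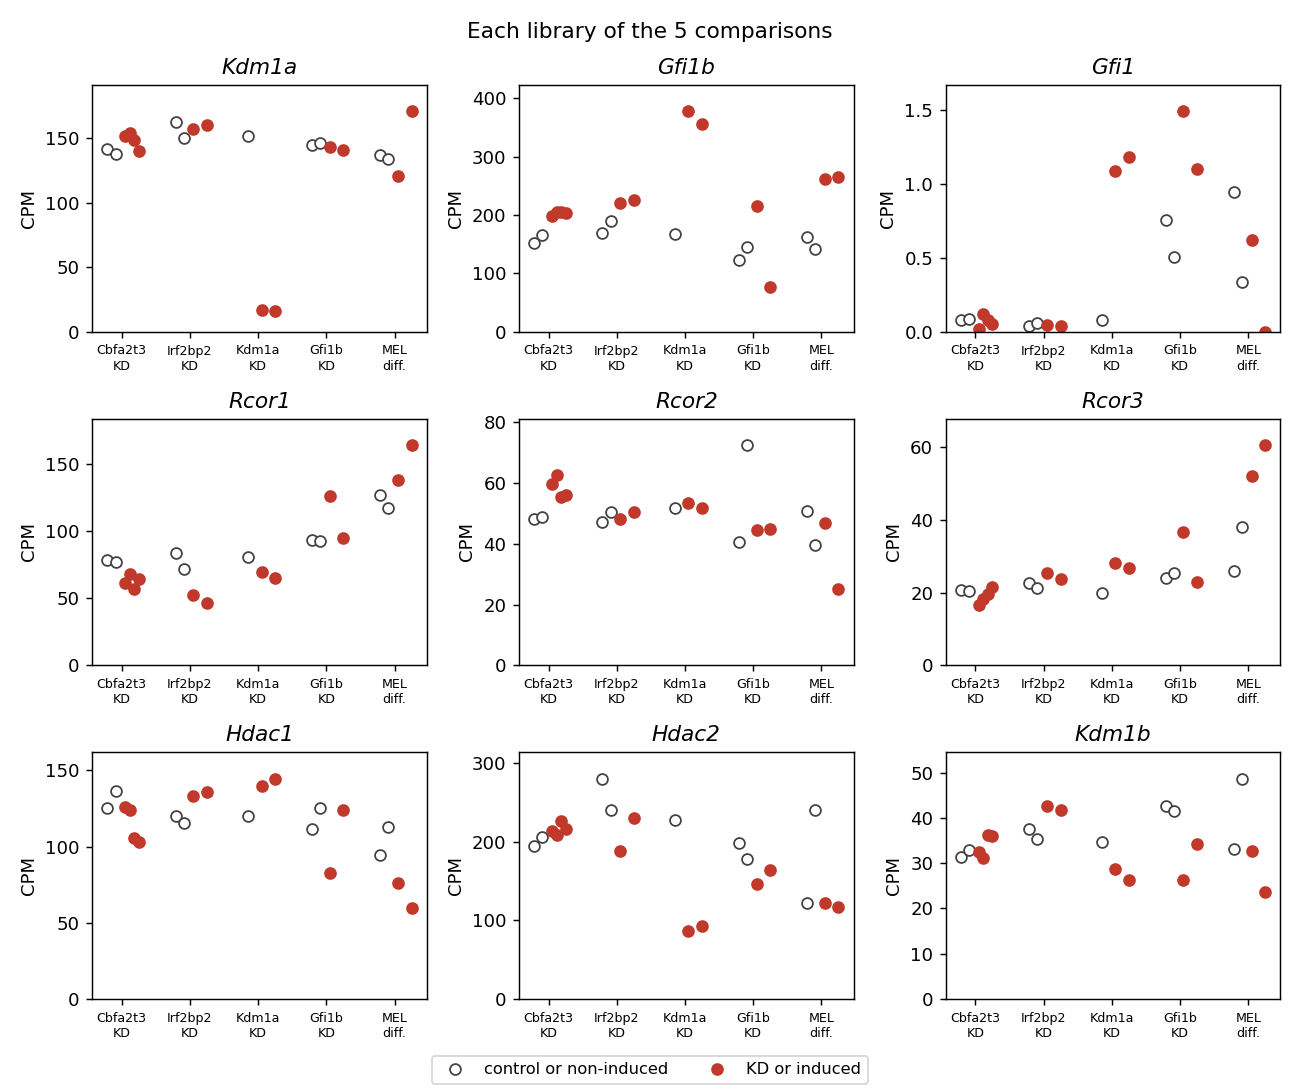
Level of each gene in every library of the 5 comparisons, in CPM (1 panel per gene, each with its own linear axis from 0); open and filled points are control and KD or induced libraries. *Kdm1a* is at 16.9 and 16.3 CPM in its own KD, *Gfi1b* is at 377.3 and 356.4 CPM in *Kdm1a* KD, and *Hdac2* is at 85.9 and 93.3 CPM there.

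The comparison labelled *Gfi1b* KD addressed the factor that brings the complex to DNA. With both KD libraries, 0 of the 9 genes were called by edgeR (0% of 11190 genes; a call needed an adjusted p at or below 0.05 together with a log2 change of at least 0.5 either way). At an unadjusted p of 0.05 or less, whatever the fold, 0 of the 9 and 784 of all genes passed (7.01%), and DESeq2 called 0 of the 9 and 59 of all. In simulated data of this design the test recovered 2 of 200 genes changed by a log2 of 1.

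*Gfi1b* stood at 122.3 and 145 CPM in the controls, at 215.8 CPM in the library labelled KD replicate 1 and at 76.5 CPM in replicate 2. Replicate 1 lay above both controls and replicate 2 below both, so that the targeted gene goes against the label of 1 library. The fitted log2 change was 0.13 ± 0.44 (SE, edgeR adjusted p = 0.954). Without the library labelled KD replicate 1 it was -0.81 ± 0.175 (adjusted p = 0.000529, 1 KD library assumed to vary like the controls, 3.48% of all genes called), and without replicate 2 it was 0.67 (0.000458).

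*Gfi1* had 11 and 5 control reads, 28 in the library labelled KD replicate 1 and 13 in replicate 2, or 0.754 and 0.504 CPM against 1.49 and 1.10. Both libraries labelled KD lay above both controls (log2 change 1.03 ± 0.803). *Gfi1* was retained through the libraries labelled KD here too, and no p is given for it. *Kdm1a* was at 144.3 and 146 CPM with control, at 143.1 CPM in the library labelled KD replicate 1 and at 141 CPM in replicate 2 (log2 -0.03).

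Of the other genes, *Rcor3* was at 24.1 and 25.5 CPM in the controls, at 36.6 in the library labelled KD replicate 1 and at 22.9 in replicate 2. *Hdac1* was at 111.4 and 125.2 CPM against 82.9 and 123.8, and *Kdm1b* at 42.6 and 41.6 CPM against 26.3 and 34.3. *Rcor1* was at 93.5 and 92.5 CPM against 126 and 95. For *Rcor3* the library labelled KD replicate 1 lay above both controls and replicate 2 below both, and for *Hdac1* the library labelled KD replicate 1 alone lay outside the controls. Both libraries labelled KD were above the controls for *Rcor1* and below them for *Kdm1b*. For *Rcor1* replicate 2 lay above the control mean by a log2 of 0.03 only. *Hdac2* was at 198.6 and 178.2 CPM against 145.5 and 163.9, and *Rcor2* at 40.4 and 72.4 CPM against 44.5 and 44.9. Without replicate 2, *Gfi1b*, *Hdac1* (log2 -0.53, edgeR adjusted p = 0.0112) and *Kdm1b* (-0.70, 0.0137) were called, against 26.7% of all genes.

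Set beside induced MEL cells, each library against its own controls, the library labelled KD replicate 1 had log2 values of 0.70 for *Gfi1b*, 0.56 for *Rcor3*, -0.51 for *Hdac1*, -0.37 for *Hdac2* and -0.68 for *Kdm1b*. The induced libraries had 0.78 and 0.80 for *Gfi1b*, 0.72 and 0.94 for *Rcor3*, -0.44 and -0.79 for *Hdac1*, -0.49 and -0.55 for *Hdac2* and -0.29 and -0.76 for *Kdm1b*. KD replicate 2 had -0.80 for *Gfi1b*, -0.11 for *Rcor3*, 0.07 for *Hdac1*, -0.20 for *Hdac2* and -0.29 for *Kdm1b*. *Gfi1*, from few reads, was at 1.10 in the library labelled KD replicate 1 and 0.71 in replicate 2, against 0.09 and -2.43 in the induced libraries. The last of these values comes from a library with 0 *Gfi1* reads. *Rcor1* was 0.44 and 0.03 against 0.18 and 0.43, *Rcor2* -0.28 and -0.27 against 0.06 and -0.83, and *Kdm1a* -0.02 and -0.04 against -0.16 and 0.33. The megakaryocyte markers summed to 914 CPM in the library labelled KD replicate 1, against 229 and 294 in its controls and 180 in replicate 2, and the erythroid markers to 2110 against 1650, 1820 and 1740. What this library is was not tested beyond these values. None of the 8 other gene lists had a member called by edgeR in this comparison. At an unadjusted p of 0.05 or less the LSD1-CoREST, GFI1-repressed and erythroid lists held 1 of 10, 1 of 13 and 1 of 6 genes. The megakaryocyte list held 3 of 5 and the other lists 0, against 7.01% of all genes, with both libraries labelled KD in the fit. The list of genes repressed by GFI1 proteins had a median log2 of 0.21 over 13 genes, against 0.02 over all genes, with both KD libraries in the fit.

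**Figure D4:**
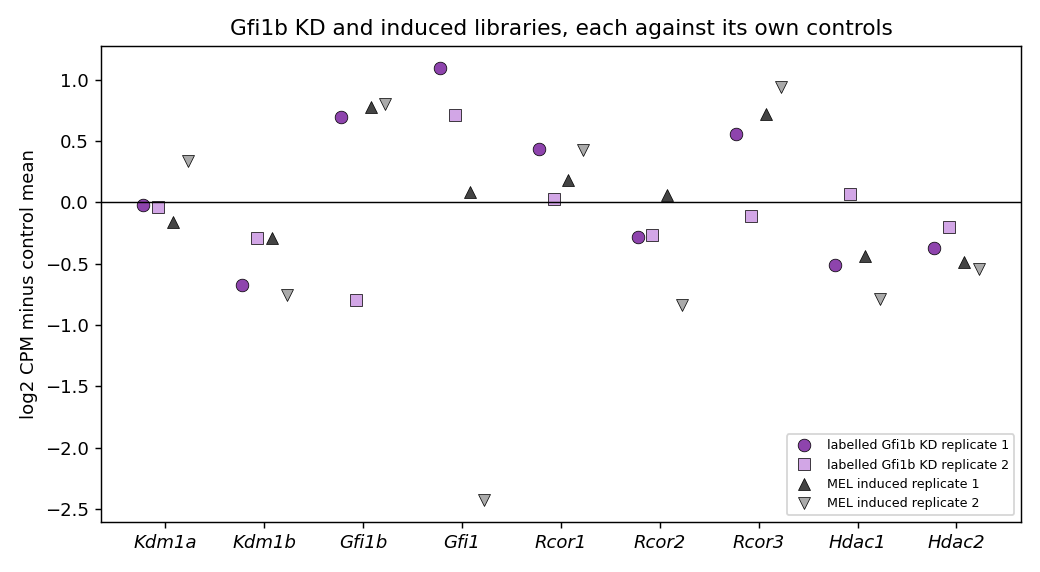
Log2 CPM of each gene minus the mean of its own controls, for the 2 libraries labelled *Gfi1b* KD and the 2 induced MEL libraries. The library labelled KD replicate 1 lies at 0.70 for *Gfi1b* and 0.56 for *Rcor3*, on the side of the induced libraries, and replicate 2 at -0.80 and -0.11.

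The difference between the *Gfi1b* and *Kdm1a* changes was tested in the joint edgeR fit, with the lone *Kdm1a* control assumed to vary like the other groups. It passed for *Kdm1a* alone among the 9 genes (3.14 ± 0.196 on the log2 scale, adjusted p = 5.4e-07), and for 2.79% of 14176 genes. *Kdm1a* is the gene targeted in *Kdm1a* KD, so the design fixed its difference in advance. The difference was -1.0 for *Gfi1b* (adjusted p = 0.248), -2.73 for *Gfi1* (no p given) and 1.04 for *Hdac2* (0.0902). Without the library labelled *Gfi1b* KD replicate 1, the difference was -1.94 for *Gfi1b* (4.84e-05), -2.97 for *Gfi1* and 1.14 for *Hdac2* (0.0771).

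Induction of MEL cells tested how the complex changes as the cells mature. *Gfi1b* and *Rcor3* rose, and the other 6 genes tested did not pass. In all, 2 of 8 genes were called by edgeR, both higher, against 27.2% of 11713 genes (12.4% higher, 14.8% lower), and *Gfi1* fell below the filter on low counts. *Gfi1b* was at 162.9 and 142.1 CPM in non-induced cells and at 261.5 and 264.9 CPM after 96 h, so that the groups did not overlap (1.73-fold, log2 0.79 ± 0.235, adjusted p = 0.024). *Rcor3*, a scaffold described as less able to support LSD1 activity on nucleosomes than RCOR1, was at 26 and 37.9 CPM against 51.9 and 60.6 (1.76-fold, 0.82 ± 0.275, adjusted p = 0.0401). Both calls depended on single libraries. *Gfi1b* had an adjusted p of 0.0615 to 0.114 when any 1 was left out, and *Rcor3* lost its call without non-induced replicate 1 (0.247) or induced replicate 2 (0.188). DESeq2 called both (0.0052 and 0.0274), with 28.2% of all genes called.

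The deacetylases and *Kdm1b* were lower in the induced libraries without passing. *Hdac1* was at 94.3 and 113.1 CPM against 76.1 and 59.8, with no overlap (log2 -0.61, edgeR adjusted p = 0.0816, and 0.00721 in the joint fit). *Hdac2* was at 121.7 and 240.1 CPM against 121.7 and 117.1, and only non-induced replicate 2 lay above the induced libraries (log2 -0.60, adjusted p = 0.149, and -0.03 without that library). *Kdm1b* was at 33.1 and 48.7 CPM against 32.8 and 23.7 (log2 -0.53, adjusted p = 0.201, and 0.0307 in the joint fit). The joint fit called *Hdac2* too (0.0327), which made 5 of the 9 genes, *Gfi1b* and *Rcor3* included, against 38.0% of all genes. Without the library labelled *Gfi1b* KD replicate 1 the joint fit gave an adjusted p of 0.000517 for *Hdac1*, 0.0219 for *Hdac2* and 0.0138 for *Kdm1b*, with 42.1% of all genes called.

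*Kdm1a* was at 137.2 and 133.6 CPM in non-induced and at 121 and 170.7 CPM in induced cells (log2 0.11). *Rcor1* was at 126.9 and 116.7 CPM against 138.2 and 163.9 (0.31), and *Rcor2* at 50.8 and 39.6 CPM against 46.8 and 25.1 (-0.33). *Gfi1* had 19 and 4 reads in non-induced and 9 and 0 reads in induced libraries, so that no change was detectable at this depth. In simulated data of this design the test recovered 21 of 200 genes changed by a log2 of 1.

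The other lists are read against the 27.2% of all genes called in this comparison. Of 10 subunits and partners of LSD1-CoREST, 3 rose and 0 fell, with a median log2 of 0.48 against -0.02 over all genes. Among them, *Gse1* rose from 137.1 and 102.8 CPM to 556.5 and 484 (4.33-fold, edgeR adjusted p = 9.88e-05) and *Phf21a*, a reader of unmethylated H3K4, rose by 2.04-fold (0.00854). Of 16 SIN3 and NuRD subunits 0 rose and 4 fell (median -0.22), among them the NuRD remodeller *Chd3* (from 244.3 and 243.1 CPM to 78 and 44.3), *Sap30* (log2 -1.77) and *Mbd3* (-1.21). Of 10 H3K4 enzymes 2 rose, the methyltransferase subunit *Setd1b* (log2 1.35) and the demethylase *Kdm5c* (0.77).

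Of 13 genes described as repressed by GFI1 or GFI1B, 1 rose and 5 fell with differentiation (median log2 -1.44). The homeobox factor *Meis1* fell by 2.09 on the log2 scale, *Egr1* by 2.01 and *Cdkn1a*, a cyclin-dependent kinase inhibitor, by 1.68. Of 6 erythroid markers 4 rose and 1 fell (*Tal1* 1.83, *Epor* 1.10, *Lmo2* -1.53), and 2 of 5 megakaryocyte markers rose (*Itga2b* 4.2-fold, *Gp1ba* 3.99-fold). The summed megakaryocyte level was 531 and 390 CPM before and 1330 and 1200 CPM after induction. The only SNAG-domain factor tested had a log2 of 0.73 and was not called. The myeloid marker *Ptprc* fell (-1.01) and *Csf1r* was at 0 in both induced libraries.

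**Figure D5:**
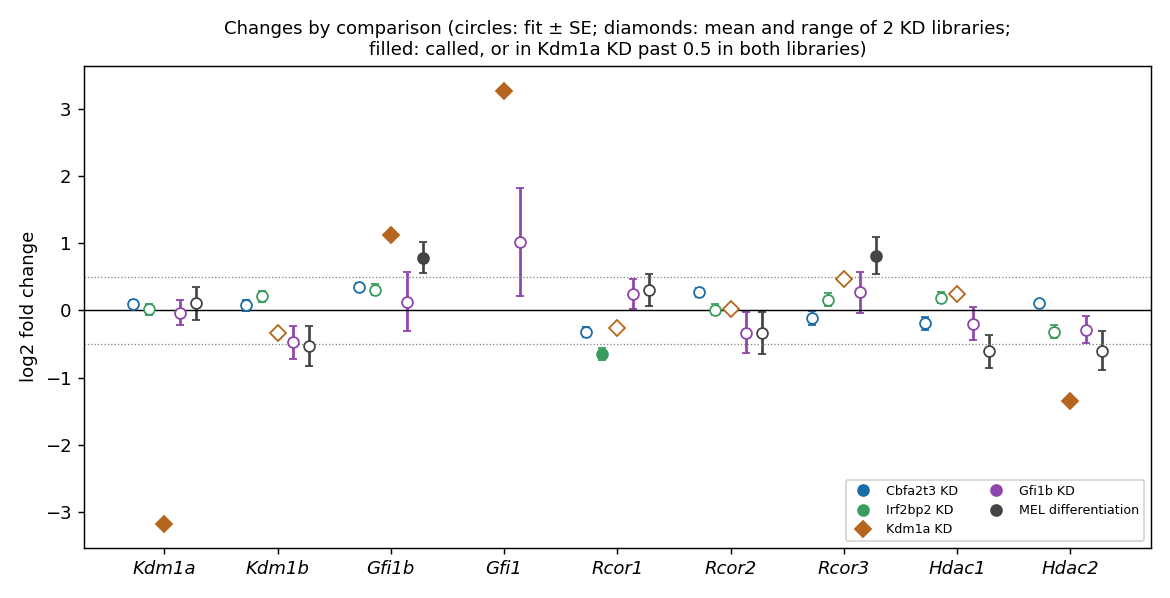
Log2 change of each of the 9 genes in each comparison; circles are the edgeR fit ± SE, diamonds the mean and range of the 2 *Kdm1a* KD libraries against 1 control, and filled symbols passed the limits, which for the diamonds means past the fold in both libraries, with no test. The filled symbols are *Kdm1a*, *Gfi1b*, *Gfi1* (retained only through the KD libraries) and *Hdac2* in *Kdm1a* KD, *Gfi1b* and *Rcor3* in differentiation and *Rcor1* in *Irf2bp2* KD.

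Of the 8 genes tested after depletion of either co-repressor, 1 was called by edgeR in *Irf2bp2* KD and 0 in *Cbfa2t3* KD. *Irf2bp2* was at 116 and 119.7 CPM in its controls and at 92.2 and 94.9 CPM in its KD, so that 79.4% was left (log2 -0.33, edgeR adjusted p = 0.00266). *Rcor1* was the 1 gene called of 8 tested, against 22.5% of 12329 genes (10.1% higher, 12.5% lower). It stood at 83.3 and 71.9 CPM without and at 52 and 46.7 CPM with the hairpin, levels that did not overlap (1.57-fold lower, log2 -0.65 ± 0.0928, adjusted p = 2.25e-05). *Gfi1b* was at 169.3 and 189.1 CPM against 219.7 and 225 (log2 0.31, adjusted p = 0.00685), and *Hdac2* at 280.1 and 239.6 CPM against 188.2 and 229.6 (-0.31, 0.019). Both were short of the fold limit. *Kdm1a* (0.02), *Rcor2* (0.01), *Rcor3* (0.16), *Hdac1* (0.19) and *Kdm1b* (0.21) stayed within 0.25 on the log2 scale, and *Gfi1* had 2 or 3 reads in each library.

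The lists after *Irf2bp2* KD are read against the 22.5% of all genes called there. The other LSD1-CoREST genes held 1 that rose (*Gse1*, 2.12-fold, edgeR adjusted p = 2.16e-08) and 2 that fell (*Zfp217*, log2 -0.54, and *Phf21a*, -0.50) of 10. Of 16 SIN3 and NuRD genes *Chd3* (-1.19) and *Sap30* (-0.62) fell, and of 10 H3K4 enzymes *Kdm5b* fell (-0.57) and *Kmt2b* rose (0.52). Of 13 genes repressed by GFI1 proteins 4 rose and 4 fell, among them *Rgs18* (-2.07), *Meis1* (-1.49) and *Socs3* (1.46). The 1 SNAG-domain factor tested was not called (log2 -0.58). Beside these, 4 of 6 erythroid markers rose, with a summed level of 1890 and 2060 CPM in the controls against 2750 and 2820. All 5 megakaryocyte markers tested rose (370 and 423 CPM against 798 and 830 in sum), and the myeloid marker *Ptprc* fell (log2 -1.13). The part of these markers in the level of *Rcor1* was not tested.

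*Cbfa2t3* was at 400.3 and 427.2 CPM in its controls, at 202.1 and 243.5 CPM with sh2 and at 123.1 and 145.3 CPM with sh3 (log2 -1.21, edgeR adjusted p = 0.00954). None of the 8 genes tested was called by edgeR, against 5.74% of 12537 genes (2.99% higher, 2.75% lower). By DESeq2 0 were called, against 5.90% of all genes. At an unadjusted p of 0.05 or less 3 of the 8 passed, 0 of them past the fold limit, against 26.2% of all genes at any fold. The 3 genes were *Gfi1b*, at 152.9 and 165.3 CPM in the controls against 199.1, 204.7, 205.9 and 203.6 (log2 0.35 ± 0.0555, adjusted p = 0.00449), *Rcor1*, at 78.5 and 77.2 against 61, 67.7, 56.9 and 64.5 (-0.32, 0.0295), and *Rcor2*, at 48 and 48.7 against 59.6, 62.4, 55.2 and 56.1 (0.27, 0.0391). For each of them all 4 KD libraries lay on the same side of both controls. *Kdm1a* (0.09), *Rcor3* (-0.11), *Hdac1* (-0.19), *Hdac2* (0.10) and *Kdm1b* (0.08) did not pass, and *Gfi1* had 4 and 5 control reads against 1, 6, 4 and 3.

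Between the *Cbfa2t3* hairpins, *Cbfa2t3* was lower with sh3 (log2 -0.73, edgeR adjusted p = 0.000752), and 0 of 8 genes were called by edgeR against 3.71% of all genes. At an unadjusted p of 0.05 or less 4 of the 8 passed with changes below the fold limit, against 28.4% of all genes at any fold. DESeq2 called 0, against 3.08% of all genes. *Hdac1* was lower with sh3 by a log2 of -0.26 (adjusted p = 0.0127). After *Cbfa2t3* KD, where 5.74% of all genes were called, 0 of 10 LSD1-CoREST and 0 of 10 H3K4 genes were called by edgeR (6 and 4 at an unadjusted p of 0.05 or less, none past the fold limit, against 26.2% of all genes at any fold). In the same comparison 1 of 16 SIN3 and NuRD genes fell (*Chd3*, log2 -0.93), *Ovol1* fell (-0.80), and of 15 genes repressed by GFI1 proteins 1 rose and 3 fell (*Rgs18* -1.82, *Meis1* -1.19 and *Id1* -0.76). Of 6 erythroid markers 3 rose (*Epor* 0.60, *Tal1* 0.57 and *Klf1* 0.51), 2 of 5 megakaryocyte markers rose (*Vwf* 2.15, *Gp9* 0.68) and *Ptprc* fell (-1.47).

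The changes of *Cbfa2t3* and *Irf2bp2* KD were compared in the joint edgeR fit, and 0 of the 9 genes differed (1.35% of 14176 genes did; 0 of the 9 had an unadjusted p of 0.05 or less, as 12.6% of all genes did, and DESeq2 was not run on this difference). For *Rcor1*, called after *Irf2bp2* KD and not after *Cbfa2t3* KD, the difference was 0.34 (adjusted p = 0.516). In a joint fit of these tables alone, which leaves out the library labelled *Gfi1b* KD replicate 1, 0 of the genes passed both limits, against 16.8% of all genes. The difference of *Rcor1* was then 0.33 (adjusted p = 0.0404), that of *Rcor2* 0.25 (0.0379), of *Hdac1* -0.39 (0.00238) and of *Hdac2* 0.41 (0.0186), each past the p limit and short of the fold limit. The log2 change of *Gfi1b* was 0.35 and 0.31 in the fits of the separate tables, past the p limit and short of the fold limit in both.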

How the data were processed

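The authors mapped RNA-Seq reads to mm9 with TopHat2 and deposited, per gene and library, raw counts and RPKM values made with rpkmforgenes. Their deposited site list gives a fold enrichment (ratio of ChIP to IgG reads), an adjusted p-value and read counts per site. The authors' own log2 fold changes and p-values for genes were not used, and the GFI1B and LSD1 ChIP samples were not analysed here. The 9 genes and the other gene lists were chosen with earlier results of these data known.

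Raw counts went into edgeR 4.0.16 under R 4.3.3 (TMM, filterByExpr, quasi-likelihood test), each table on its own, with Benjamini-Hochberg adjustment over all genes of a table. A call needed an adjusted p at or below 0.05 together with a log2 change of at least 0.5 either way. Log2 CPM values used a prior count of 2. *Kdm1a* KD, with 1 control, was described by size. Counting intervals (95%) and counts cover counting error only. Differences between knockdowns came from a joint fit of 21 libraries in 11 groups, which also served as an alternative. Other alternatives were DESeq2 1.42.0, its size factors, other count filters, no fold limit, unadjusted p, the replicate number as a term, and each library left out. The test was checked on simulated data. Of 200 genes given a log2 change of 1, it recovered 164 in the *Cbfa2t3* design, 179 in *Irf2bp2*, 2 in *Gfi1b* and 21 in differentiation. From each other list up to 3 called genes with the largest changes were named. *Rgs18* in *Kdm1a* KD was named after its values were seen. Sites were assigned in Python 3.11.15 to the single nearest start site within 1 Mb in the GENCODE annotation of mm9, to which *Gfi1* was added because it is listed there as a processed transcript. Some genes of the lists are not named here.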

Additional observations from a re-analysis of the deposited data

Results flagged for a closer look

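Among the 9 genes, the comparison labelled *Gfi1b* KD and *Kdm1a* KD differed by a test of the difference itself for 1 gene. That test held the library labelled *Gfi1b* KD replicate 1, where *Gfi1b* lay above both controls. Without this library the difference of *Gfi1b* was -1.94, against -1.0 with it. The log2 change of *Kdm1a* was -0.03 in *Gfi1b* KD and -3.19 in *Kdm1a* KD, where it is the targeted gene and the control is 1 library. The difference, which the design fixed in advance, was 3.14 ± 0.196 (joint edgeR fit, adjusted p = 5.4e-07). It lay between 3.12 and 3.17 in the 8 alternatives, with adjusted p-values of 3.73e-08 to 0.0167.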

How the results depend on the processing

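Counts of the 9 genes called kept within 1.5 times in 81 of the alternatives run and moved in 15. Without a fold limit 3 genes passed in *Cbfa2t3* KD (11.4% of all genes), 3 in *Irf2bp2* KD (47.1%) and 1 between the hairpins (13.7%). With a library left out of *Gfi1b* KD or of differentiation, 1 library remains in a group, so no count is given. Both calls in differentiation depended on single libraries. The joint fit gave 2 for *Kdm1a* KD, the targeted gene among them (5.17% of all genes), and 5 for differentiation (38.0%). For the difference between *Gfi1b* and *Kdm1a* KD, leaving a library out also leaves 1 library in a group, and no count is given. In the joint fit without the library labelled *Gfi1b* KD replicate 1, an alternative chosen after seeing the data, differentiation gave 5 (42.1% of all genes). In that fit *Gfi1b* KD has 1 library and the *Kdm1a* KD count includes the targeted gene, so neither count is given. Sites with a member as nearest gene numbered 9, and 4 at or above the median enrichment. The causes of these shifts were not tested.

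The replicate numbers were shared between groups, but the correlations of replicate differences (0.00153 to 0.252, at most 2 numbers) do not show that they pair the libraries. With the replicate block the counts were 0, 1, 0, 3 and 0 in *Cbfa2t3* KD, *Irf2bp2* KD, *Gfi1b* KD, differentiation and between hairpins. In the same order 5.04, 23.0, 0, 33.4 and 4.63% of all genes were called with the block. *Hdac1* in differentiation then passed (adjusted p = 0.0491). No block was possible with 1 *Kdm1a* control.

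Changes of sign occurred at 25 values, and 0 of them were of a change called in the main comparison. In *Gfi1b* KD, *Gfi1b* was -0.047 with the block, -0.82 in the joint fit without the library labelled KD replicate 1, and -0.81 to 0.67 with a library left out. There *Rcor3* ran from -0.11 to 0.54 and *Hdac1* from -0.53 to 0.064 (-0.12 and 0.052 in that joint fit), and *Rcor2* from -0.70 to 0.13. With a library left out, *Kdm1a* (-0.034 to 0.084) and *Rcor2* (-0.028 to 0.064) reversed in *Irf2bp2* KD, *Kdm1a* (-0.15 to 0.33) and *Rcor2* (-0.86 to 0.061) in differentiation, and *Rcor1* (-0.18 to 0.0055) between hairpins. With sh2 alone *Kdm1b* was -0.018. In the difference of *Cbfa2t3* and *Irf2bp2* KD, *Gfi1b* ran from -0.045 to 0.13 and *Gfi1* from -0.85 to 0.33. In that of *Gfi1b* and *Kdm1a* KD, *Rcor2* ran from -0.73 to 0.10, *Rcor3* from -0.59 to 0.080 and *Kdm1b* from -0.36 to 0.035.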

Other observations

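Among 11053 genes retained in all 5 tables, those whose log2 CPM, each library taken against its own controls, followed *Gfi1b* most closely over the 12 KD and induced libraries were *Relb* (Pearson r = 0.965), an NF-kappaB subunit, *Prc1* (0.94), a protein of the cytokinesis spindle, *Gm16973* (0.923), *Syne3* (0.911), a nesprin of the nuclear envelope, and *Gm5617* (0.908). *Relb* was 2.19 and 2.25 above control in the *Kdm1a* KD libraries, 0.58 above it in the library labelled *Gfi1b* KD replicate 1 and 2.08 below it in replicate 2. The 12 libraries share controls within a table and 6 of them come from the shRNA against *Cbfa2t3* or *Irf2bp2*, and the library labelled *Gfi1b* KD replicate 1 is among them, so these values are descriptions. Among the genes described here, *Hdac2* and *Kdm1a* had r = 0.877 over the same libraries (with the *Kdm1a* KD libraries lowest in both), *Kdm1b* and *Rcor1* had r = -0.881, and *Gfi1b* and *Rcor3* had r = 0.644.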
